A study of Drosophila melanogaster with 2 samples.

Results

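The muscle and heart development genes described here are 10 genes chosen by name: tin, Mef2, twi, bap, bin, sls, Mhc, kirre, rst and sns. Each matched a single gene among 13945 annotated protein-coding genes, with the FlyBase identifiers FBgn0004110 (tin), FBgn0011656 (Mef2), FBgn0003900 (twi), FBgn0004862 (bap), FBgn0045759 (bin), FBgn0086906 (sls), FBgn0264695 (Mhc), FBgn0028369 (kirre), FBgn0003285 (rst) and FBgn0024189 (sns). Binding was measured by chromatin immunoprecipitation and sequencing (ChIP-seq) with an antibody against GFP, on whole embryos of Drosophila melanogaster, both sexes pooled and aged 0 to 24 h, from a transgenic line that stably carries gem fused at its C-terminus to GFP. Gem belongs to the CP2 branch of the Grainyhead family of transcription factors. There was 1 group of 2 samples, biological replicates 1 and 4. A control alignment entered the peak calling, embryos without the tag are not analysed here, and the labels name no promoter for the fusion. A peak belonged to a gene when its summit lay inside the gene or within 10 kb of it. By this rule 105 of the 11045 peaks that passed the irreproducible discovery rate (IDR, a procedure that sets a cutoff from the similarity of peak ranks between replicates) lay at the 10 genes. The same rule found 256 of 30000 peaks in the list called on the pooled replicates, 253 of 30000 in the list of replicate 1 and 242 of 30000 in that of replicate 4. The IDR list held exactly the 11045 pooled peaks of highest signal. Signal is a value per peak from the authors' caller, with no stated unit, so it ranks peaks within a list and is not a level that can be compared between lists. Read depth is unknown from peak lists, and whole embryos do not show in which cells a site was bound.

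In the fly embryo, mesoderm is specified by the basic helix-loop-helix factor Twist, encoded by twi, which switches on tin and Mef2. Tinman, the NK homeobox protein of tin, is needed for the heart and the visceral muscle, where it acts through bap, another NK homeobox gene, and bin, a FoxF-type forkhead gene. Mef2 is a MADS-box factor that drives muscle differentiation in all muscle types. Body-wall muscles then form by fusion of founder cells, which carry the immunoglobulin-type receptors encoded by kirre and rst, with fusion-competent myoblasts, which carry the receptor encoded by sns. Mature fibres contain the myosin heavy chain of Mhc and the titin-like spring protein of sls. The first 5 genes are called regulators below, and sls, Mhc, kirre, rst and sns are called structural and fusion genes.

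The strongest IDR peak of each of 6 genes lay in AT-rich DNA, and these summits are shown because the description of each gene below starts from them. Each line gives the plus strand of the 101 bp centred on the summit, read 5′ to 3′ from the RefSeq copy of release 6 of the genome, in dm6 coordinates. Capitals mark matches on either strand to CANNTG (the E box of basic helix-loop-helix proteins) or CACTTGA (a site of the Tinman type); CCGGTT, the repeated part of the Grainyhead family site AACCGGTT, and GAGAGA, the site of the GAGA factor, were also searched and had no match in these lines. The windows are chr3R:21378700-21378800 for tin, chr3L:6989270-6989370 for bin, chr3L:2115828-2115928 for sls, chr2L:16760647-16760747 for Mhc, chrX:3097157-3097257 for kirre and chrX:2951785-2951885 for rst.
tin: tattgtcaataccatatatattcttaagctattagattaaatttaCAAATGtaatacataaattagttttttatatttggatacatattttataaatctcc
bin: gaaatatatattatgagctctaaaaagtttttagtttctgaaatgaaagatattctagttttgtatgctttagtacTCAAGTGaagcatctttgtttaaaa
sls: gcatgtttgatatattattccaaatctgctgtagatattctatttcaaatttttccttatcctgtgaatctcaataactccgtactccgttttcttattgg
Mhc: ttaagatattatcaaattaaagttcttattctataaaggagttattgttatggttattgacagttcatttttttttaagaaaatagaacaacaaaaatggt
kirre: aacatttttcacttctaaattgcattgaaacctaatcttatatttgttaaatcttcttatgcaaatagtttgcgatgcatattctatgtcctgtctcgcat
rst: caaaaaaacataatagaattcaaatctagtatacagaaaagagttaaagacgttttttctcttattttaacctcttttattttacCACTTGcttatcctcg
GC content was 17.8% in the tin window, 24.8% at bin, 31.7% at sls, 20.8% at Mhc, 29.7% at kirre and 26.7% at rst. The median over windows of this width at all 11045 IDR peaks was 28.7%, so AT-rich summits are not particular to these genes. In the bin window the capitals TCAAGTG read CACTTGA on the other strand and contain an E box.

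Of the 10 genes, 9 had at least 1 IDR peak inside the gene or within 10 kb, bap being the exception, against 74.6% of all protein-coding genes. Summits of the IDR list came within 500 bp of a gene's own transcription start site (TSS) at 3 of the 10, tin, Mef2 and sls, against 24.6% of all protein-coding genes. In the longer pooled list, 9 of 10 had a peak in the window (82.6% of all protein-coding genes) and 6 of 10 had one within 500 bp of their own TSS (35.0% of all protein-coding genes). Mhc, kirre and rst were added, with signals from 75.1 to 105.3, below the 186.6 that is the lowest of the IDR list. In the IDR list both counts lie within 2 genes of the background share. The median length of the 10 genes was 34400 bp, against 2166 bp for all protein-coding genes. A long gene has a longer window for the first count, but not a longer stretch around each TSS. Whether length bears on these counts was not tested.

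**Figure D1:**
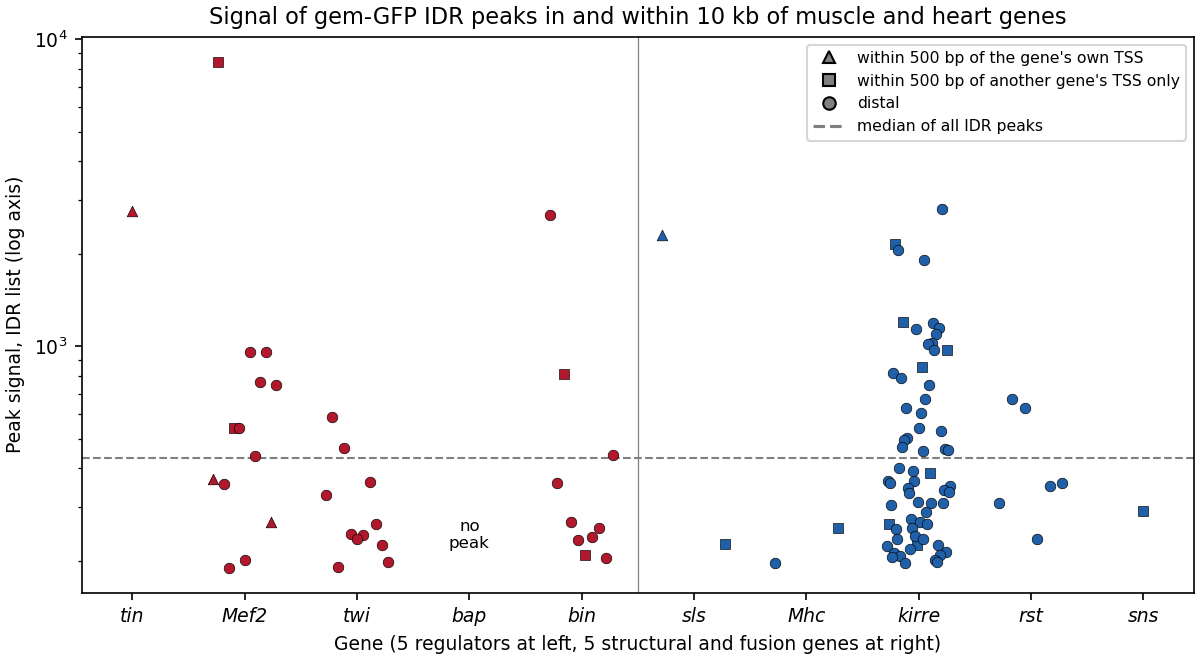
Signal (log axis) of every IDR peak inside or within 10 kb of each gene, with regulators in red and structural and fusion genes in blue. Triangles lie within 500 bp of the gene's own TSS, squares within 500 bp of another gene's TSS only and circles further away; the dashed line is the median of all IDR peaks, 431.8. tin and sls each have a strong peak at their own TSS, the highest point at Mef2 (8427) lies at another gene's TSS, and most points of the other genes lie below the dashed line.

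Among the regulators, tin had 1 strong peak just upstream of its start and nothing else in the IDR list. The gene lies on 3R at 21378977 to 21381970 (plus strand), and the peak at 21378563 to 21378938, in intergenic DNA, had its summit 227 bp upstream of the TSS. Its signal was 2746, rank 472 of 11045. It had 1984 in replicate 1 and 771.5 in replicate 4, ranks 477 and 468 of the 30000 peaks in each list, and the 3 lists placed the summit within a few bases of one another. A further pooled peak in the tin window, with a signal of 114.9, lay 102 bp from a TSS of the neighbour mod(mdg4), a gene for BTB-domain chromatin proteins.

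bap, which lies 6909 bp beyond tin on the same strand at 21388880 to 21390449, had no peak in its window in any of the 4 lists. The nearest summit was that of the tin promoter, 10130 bp away and so just outside the 10 kb limit. The tin and bap windows share 13091 bp, which held no IDR peak. A lack of called peaks does not show a lack of binding, since coverage of this stretch is not known from peak lists.

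bin, a short gene on 3L at 6990622 to 6994447 (plus strand), had 10 IDR peaks, 4.20 per 10 kb of window. That density ranked 66 of 13945 protein-coding genes, against 0.825 per 10 kb over all 6 arms. The strongest peak, 2671, lay at 6989057 to 6989598 in intergenic DNA with its summit 1302 bp upstream of the only bin TSS. It had 1884 in replicate 1 and 792.0 in replicate 4, ranks 533 and 454. Only this peak and a weak intronic one of 234.1 were closer to bin than to any other protein-coding TSS. The next strongest, 810.0 at 6981820 to 6982200, lay 318 bp from a noncoding RNA gene and 1977 bp from Galphai, a G-protein subunit gene, with 621.3 in replicate 1 and 188.7 in replicate 4. The third, 440.5 at 7001937 to 7002181, was inside Mp, a collagen gene downstream of bin, with 305.9 in replicate 1 and 135.8 in replicate 4. The remaining 7 peaks had signals from 203.6 to 357.8. The bin window thus takes in sites beside its neighbours, and only 2 of its 10 peaks are closest to bin. At the outer limit, the summit 9906 bp from the gene, with a signal of 267.3, was counted, and the summit at 11519 bp, with 208.7, was not. The interval of the counted summit, 6980514 to 6980917, overlapped the interval of the 203.6 peak, 6980800 to 6980994. This pair is counted as separate peaks in the density but is not made of separate regions.

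Mef2 (2R, 9913496 to 9958858, minus strand) had 13 IDR peaks, 1.99 per 10 kb, of which 10 lay inside the gene. The strongest peak in the window, 8427, ranked 30 in the IDR list and in each replicate, with 6071 in replicate 1 and 2375 in replicate 4. It lay at 9959659 to 9960149, inside Pal1, a gene for a peptide-amidating enzyme, 171 bp from the TSS of Pdrg1 and 1045 bp upstream of the nearest Mef2 TSS. It is therefore nearer to other genes than to Mef2. Of the other peaks, the highest values were inside the gene: 960.3 in an intron at 9935559 to 9936161, with 721.4 in replicate 1 and 225.4 in replicate 4, and 958.3 in a 5′ UTR stretch at 9942854 to 9943140, with 654.7 in replicate 1 and 297.8 in replicate 4. The intronic interval held a second summit of 763.9, and another interval, 9949033 to 9949865, held summits of 747.7 and 541.7, so that neighbouring summits of a pair share an interval and are not separate regions. Mef2 has 3 TSSs, and a peak lay at 2 of them, with a signal of 369.1 at 79 bp downstream of the middle one and 267.6 at 131 bp upstream of the outermost. Both promoter peaks were below the median of all IDR peaks.

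twi had 11 peaks, 9 of them below the median of all IDR peaks, and none close to its start sites. The annotated gene is long (2R, 22985374 to 23048325, plus strand), since 1 of its 3 TSSs lies far upstream of the others. The strongest peak, 589.1 at 23003176 to 23003428, lay in the resulting long intron, 17942 bp from a twi TSS and 4432 bp from that of CG9896, with 439.3 in replicate 1 and 147.3 in replicate 4. The second, 467.4 at 23051802 to 23051999 downstream of twi, was 5499 bp from the nearest twi TSS and 3653 bp from that of Fatp2, a fatty acid transport gene, with 331.3 in replicate 1 and 132.4 in replicate 4. The third, 360.2 at 23057023 to 23057233, lay inside Fatp2, with 250.4 in replicate 1 and 107.6 in replicate 4. The other 8 ran from 190.0 to 328.3, and for none of the 11 was twi the gene of the nearest protein-coding TSS. Of the 11, 10 were matched in both replicates within 100 bp, but only 5 were among the 11045 strongest of both.

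The sarcomere genes sls and Mhc differed from each other. sls (3L, 2039681 to 2115611, minus strand) had a strong peak at its single TSS, with the summit 267 bp upstream at 2115706 to 2116108 in intergenic DNA. The signal was 2307, rank 652, with 1705 in replicate 1 and 604.2 in replicate 4, ranks 637 and 747. The only other IDR peak in its window of 95931 bp, at 226.2, lay inside zormin, another titin-like gene. It was 222 bp from the TSS of an antisense RNA, and the nearest protein-coding TSS was that of sls, at 2665 bp. Inside the 75931 bp of sls itself, the IDR list had no summit and the pooled list had 2, with signals of 51.5 and 41.1.

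Mhc (2L, 16766566 to 16788766, plus strand) had 2 IDR peaks, of 254.8 at 16760495 to 16760898 and 196.7 at 16761987 to 16762390, with 181.6 and 154.6 in replicate 1 and 71.3 and 45.1 in replicate 4. Both lay upstream of the gene and closer to ppk17, an ion channel gene, the first 143 bp from its TSS. At Mhc itself only weak pooled peaks were found near the start sites: 102.8 at 412 bp and 85.0 at 340 bp from a TSS. In all, 13 pooled peaks lay in the Mhc window and 11 of them were outside the IDR list.

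**Figure D2:**
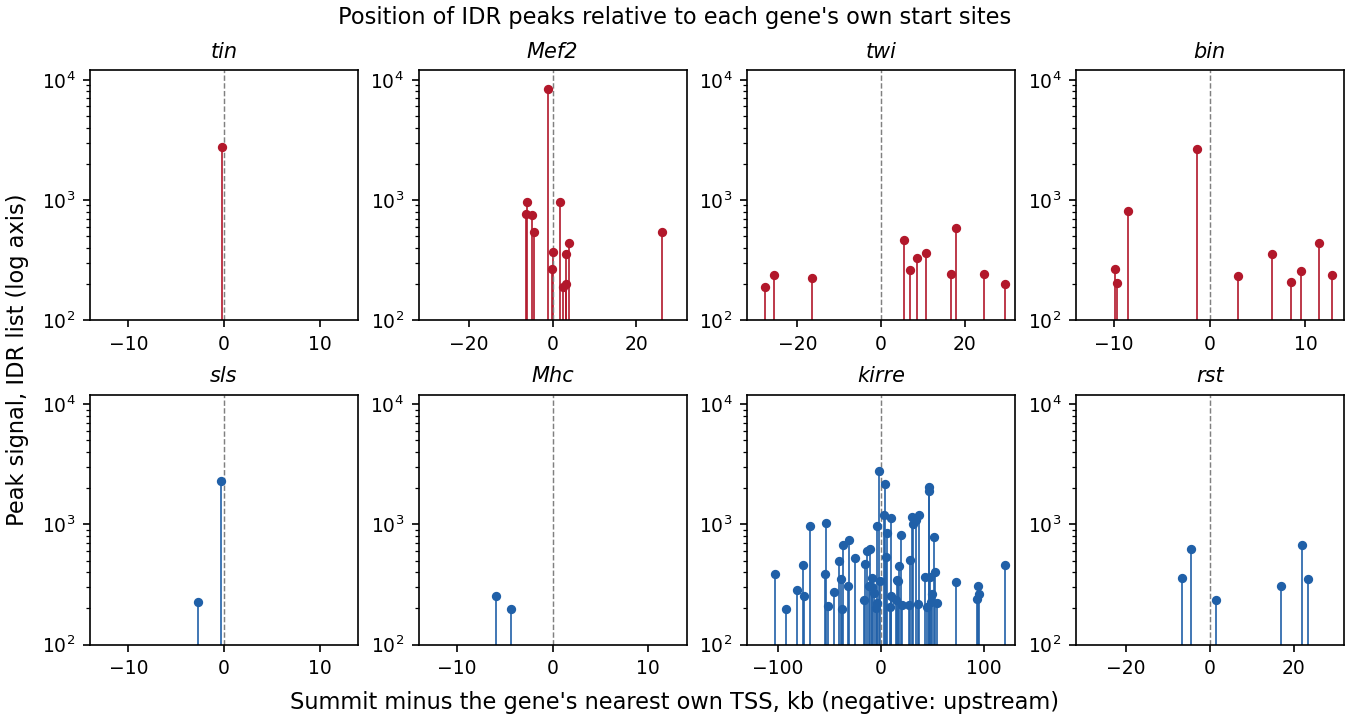
Signal (log axis) of each IDR peak against the distance of its summit from the gene's nearest own TSS in kb, for 8 of the 9 genes with a peak, with regulators in red and structural and fusion genes in blue; the horizontal scale differs between panels. tin and sls show their high point directly upstream of the start, bin at 1.3 kb upstream, twi and Mhc have no point at the start, and kirre peaks spread over more than 100 kb on each side.

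The fusion receptor gene kirre held most of the peaks. It spans 394149 bp (X, 2740384 to 3134532, plus strand), and its window had 65 IDR peaks, the highest number of any of the 13945 protein-coding genes. Per length this was 1.57 per 10 kb, which ranked 2971. Of the 65, 62 lay in introns and none was within 500 bp of a kirre TSS; the closest was at 1210 bp and the median at 32197 bp. The strongest, 2797 (rank 448), lay in an intron at 3097013 to 3097397, 2343 bp upstream of the nearest kirre TSS and inside no other gene, with 2144 in replicate 1 and 653.8 in replicate 4, ranks 406 and 658. The second, 2157 at 2744022 to 2744426, lay in a kirre intron 158 bp from the TSS of Syx4, a syntaxin gene nested there, with 1467 in replicate 1 and 688.9 in replicate 4. The third, 2063 at 2787199 to 2787663, lay inside the nested gene CG32795, with 1471 in replicate 1 and 599.4 in replicate 4. Only 20 of the 65 had kirre as the gene of the nearest protein-coding TSS. One peak of 852.2 at the 3′ end of kirre lay 359 bp from a TSS of N, the Notch receptor gene that follows it.

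The kirre peaks were not spread evenly. The 110.5 kb from the TSS at 2989051 to the one at 3099582 held 31 peaks, 2.80 per 10 kb, with a median signal of 455.1 and 6 above 1000. The 248.7 kb before it held 28 peaks, 1.13 per 10 kb, with a median of 335.7 and 4 above 1000. The last 35.0 kb held 4, 1.14 per 10 kb, with 1 above 1000. These stretches were drawn after the values were seen. All 65 peaks were matched in both replicates within 100 bp, at ranks from 406 to 11268 in replicate 1 and from 593 to 20562 in replicate 4.

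rst, the paralogue of kirre, lies inside a kirre intron on the opposite strand (X, 2950399 to 2973834), so its 6 IDR peaks are also counted for kirre and once in the total of 105. The strongest, 670.7 at 2951675 to 2951981, lay in the rst 3′ UTR, with 459.7 in replicate 1 and 210.2 in replicate 4. The second, 628.8 at 2978159 to 2978440, was 4444 bp upstream of the rst TSS, with 485.1 in replicate 1 and 138.1 in replicate 4. The third, 357.4 at 2980414 to 2980628, was 6695 bp upstream, with 293.5 in replicate 1 and 68.2 in replicate 4. None lay at the single rst TSS in the IDR list, and the pooled list had a peak of 75.1 there. A kirre peak of 972.1 lay 11530 bp beyond the gene, outside the rst window.

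sns (2R, 8798489 to 8856091, plus strand) had the lowest density of the 9 genes with a peak, 1 peak in 77603 bp or 0.129 per 10 kb. That peak, 289.5 at 8859839 to 8860242, lay downstream of sns and 323 bp from a TSS of RyR, the ryanodine receptor gene of muscle calcium release. It had 224.1 in replicate 1. In replicate 4 a peak of 88.1 (rank 8426) overlapped the interval, at 8859952 to 8860361, with its summit 207 bp from the RyR TSS and just beyond the 100 bp limit for a match. No list had a summit inside sns. In replicate 4 alone a weak peak of 48.6 lay 576 bp upstream of its TSS.

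Set side by side, regulators had 35 IDR peaks in 203.6 kb and structural and fusion genes 70 in 629.9 kb. The densities were 1.72 per 10 kb at regulators and 1.11 at structural and fusion genes, a ratio of 1.55, against 0.825 over all 6 arms. With the strongest 11045 peaks of a single replicate the ratio was 1.44 in replicate 1 and 1.73 in replicate 4. kirre sets the density of its class. Without it the other 4 structural and fusion genes had 11 peaks in 259.2 kb, 0.424 per 10 kb, and the ratio was 4.05. Of these 11 peaks, 6 were those at rst, which also lie in the kirre window. Values without kirre, here and below, therefore still include part of that window. In the pooled list the densities were 3.09 at regulators and 3.06 at structural and fusion genes, and 1.58 at structural and fusion genes without kirre. The contrast in density therefore depends on how kirre is treated in both lists. Genes within each class differed more than the classes, from 0 at bap to 4.20 at bin among regulators and from 0.129 at sns to 1.57 at kirre among structural and fusion genes. No test was made over the 10 genes, since they were chosen by name and are not replicates.

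**Figure D3:**
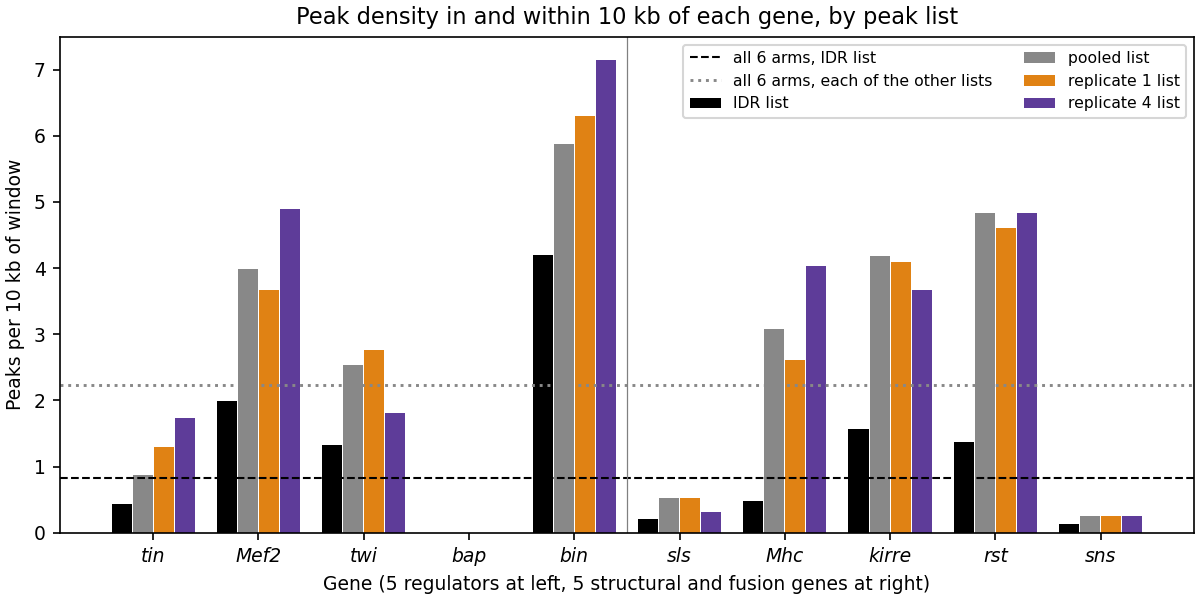
Peaks per 10 kb of window (gene plus 10 kb on each side) for each gene in the IDR, pooled, replicate 1 and replicate 4 lists, with regulators at left and structural and fusion genes at right. Horizontal lines give the density over all 6 arms, 0.825 for the IDR list and 2.24 for each of the others. In the IDR list, Mef2, twi, bin, kirre and rst lie above their line, and tin, bap, sls, Mhc and sns below it. In the other lists Mhc lies above the line (3.08 pooled, 2.61 in replicate 1, 4.03 in replicate 4). twi lies below it in replicate 4 (1.81).

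Median signal in the IDR list was close in both classes. It was 355.3 over the 35 peaks at regulators and 353.3 over the 70 at structural and fusion genes, a ratio of 1.01, which was 1.04 in the strongest peaks of replicate 1 and 0.796 in those of replicate 4. The spread between replicates, 0.169 (SD, n = 2), was larger than the distance of the ratio from equality. Without kirre, but with the 6 rst peaks that lie in its window, the IDR median at structural and fusion genes was 308.2. In the pooled list, which includes weaker peaks, the medians were 200.6 at regulators and 118.6 at structural and fusion genes, a ratio of 1.69. The median of the 105 peaks was 355.3, below the 431.8 of all 11045 IDR peaks. Signals above 1000 were reached by 3 of 35 peaks at regulators (8.57%, exact Clopper-Pearson 95% interval 1.80 to 23.1), by 12 of 70 at structural and fusion genes (17.1%, 9.18 to 28.0) and by 2266 of all 11045 (20.5%). Of the 12, 11 were in the kirre window and the other was the sls promoter peak. These intervals cover counting error only, and neighbouring peaks are not independent.

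Most of the sites were distal. Summits within 500 bp of a TSS of any gene made up 7 of 35 at regulators (20%, interval 8.44 to 36.9), 11 of 70 at structural and fusion genes (15.7%, 8.11 to 26.4) and 18 of 105 in all (17.1%, 10.5 to 25.7), against 30.4% of all IDR peaks. Of these 18, 4 were at a TSS of one of the 10 genes, namely those at tin and sls and the pair at Mef2. The kirre window held 65 of the 70 peaks at structural and fusion genes. Without kirre, 4 of 11 peaks of that class were within 500 bp of a TSS of any gene (36.4%), above the share of all IDR peaks. These 11 include the 6 rst peaks in the kirre window, none of which was that close to a TSS. The median signal was 464.5 over the 18 promoter peaks and 345.3 over the 87 distal ones, against 585.0 and 393.8 over all IDR peaks. No summit at the 10 genes fell in coding sequence of the gene it was counted for: inside the genes, summits lay in introns except for 2 in 5′ UTRs of Mef2 and 1 each in the 3′ UTRs of kirre and rst.

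Replicates recovered most of the sites. Of the 105 peaks, 101 had a summit within 100 bp in both replicate lists (96.2%, interval 90.5 to 99), against 94.3% of all IDR peaks. Among the 11045 strongest of both replicates the match was 78 of 105 (74.3%), against 79.6% of all. The 4 unmatched peaks, 1 each at Mef2, twi, bin and sns, had no replicate 4 summit within 100 bp, and with a limit of 200 bp the match was 103 of 105. The pooled list, from which the IDR peaks come, was called on these same replicates, so the shares are not an independent check.

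**Figure D4:**
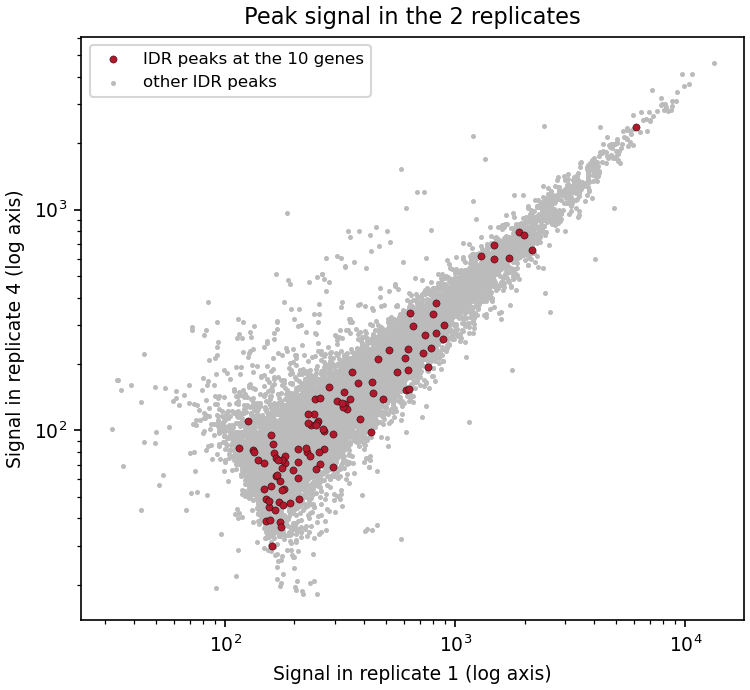
Signal of IDR peaks in replicate 1 (horizontal, log axis) and replicate 4 (vertical, log axis), for peaks matched within 100 bp in both; red points are the 101 matched peaks at the 10 genes and grey points all other matched IDR peaks. The red points lie along the grey cloud, with the peak beside Pdrg1 in the Mef2 window highest, at 6071 in replicate 1 and 2375 in replicate 4.

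Few summits at the 10 genes held the longer motifs. CCGGTT occurred within 50 bp of 0 of 105 summits, which allows a share of up to 2.86% taken as 3 counts of 105, or 3.45% as the upper bound of the exact interval, against 149 of all 11045 IDR summits (1.35%). In equally wide windows 500 bp away on each side, it occurred in 1.43% around the 10 genes' summits and 2.45% around all. AACCGGTT, which contains it, was found at 0 of 105 and at 0.244% of all IDR summits. E boxes (CANNTG) were found at 40 of 105 summits (38.1%, interval 28.8 to 48.1), as 14 of 35 at regulators and 26 of 70 at structural and fusion genes, against 30.9% of all IDR summits. The windows 500 bp to either side held one in 39.0% for the 10 genes and 41.9% for all peaks. Without kirre, but with the 6 rst summits in its window, 2 of 11 summits at structural and fusion genes held an E box (18.2%). The share of that class thus rests on kirre. CACTTGA was found at 3 of 105 (2.86%, interval 0.593 to 8.12), which included the strongest bin peak printed above, against 1.49% of all. It was found in 3.81% of the side windows of the 10 genes, against 1.92% for all peaks. GAGAGA was found at 1 of 105 (0.952%), against 2.54% of all, and in 3.81% of the side windows of the 10 genes, against 5.13% for all peaks. The median GC content of the 101 bp around the summit was 28.7% at the 10 genes and 28.7% over all IDR peaks. A match or its lack describes these letters in this window only.

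Other genes of muscle and heart development, taken from 6 lists of 76 genes, are given for comparison. A peak within 500 bp of the gene's own TSS was found at 17 of 76 (22.4%, against 24.6% of all protein-coding genes). A peak inside or within 10 kb was found at 61 of 76 (80.3%, against 74.6%). Mesoderm and heart regulators had a promoter peak at 2 of 17: stumps, the adaptor of the FGF receptor Heartless, at 2744 (2118 in replicate 1 and 630.3 in replicate 4), and htl, the receptor gene itself, at 1620 (1200 in replicate 1 and 422.9 in replicate 4). Another 12 of these 17 had only peaks further than 500 bp from their own TSSs, and these may lie at a TSS of another gene. Muscle identity and myoblast regulators had 3 of 11, led by the T-box gene org-1 at 3251 (2466 in replicate 1 and 796.2 in replicate 4), followed by how, an RNA-binding protein gene, at 295.9 and sd, a TEAD factor gene, at 235.0.

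Myoblast fusion genes had a promoter peak at 3 of 13: mbc, part of the Rac activator in fusion, at 1938 (1397 in replicate 1 and 543.2 in replicate 4), rols, an adaptor of founder cells, at 1537 (1104 in replicate 1 and 445.9 in replicate 4) and siz, an Arf exchange factor gene, at 393.9. Sarcomere genes had 3 of 23, Tm1 (tropomyosin) at 1504, Act87E (an actin) at 1427 and Actn (alpha-actinin) at 533.7, while none was found at the other 20, such as the troponin and myosin light chain genes listed. Visceral muscle genes had 1 of 4, Fas3, a cell adhesion gene, at 308.7. The strongest peaks anywhere in the windows of these genes were 2261 at HLH54F, a basic helix-loop-helix gene, 1935 at jeb, the ligand of the Alk receptor, and 1862 at Fas3. Muscle attachment genes had 5 of 8, led by the integrin alpha genes mew at 1195 and if at 715.6, then rhea (talin) at 355.5 and mys (integrin beta) at 341.4. The muscle attachment genes were also long, with a median of 25852 bp, against 2166 bp for all protein-coding genes. Visceral muscle genes had a similar median, 24433 bp, with a promoter peak at 25% and any peak at 75%. A link between length and these shares was not tested. These counts are descriptions of small lists, and no list was tested against the background.

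**Figure D5:**
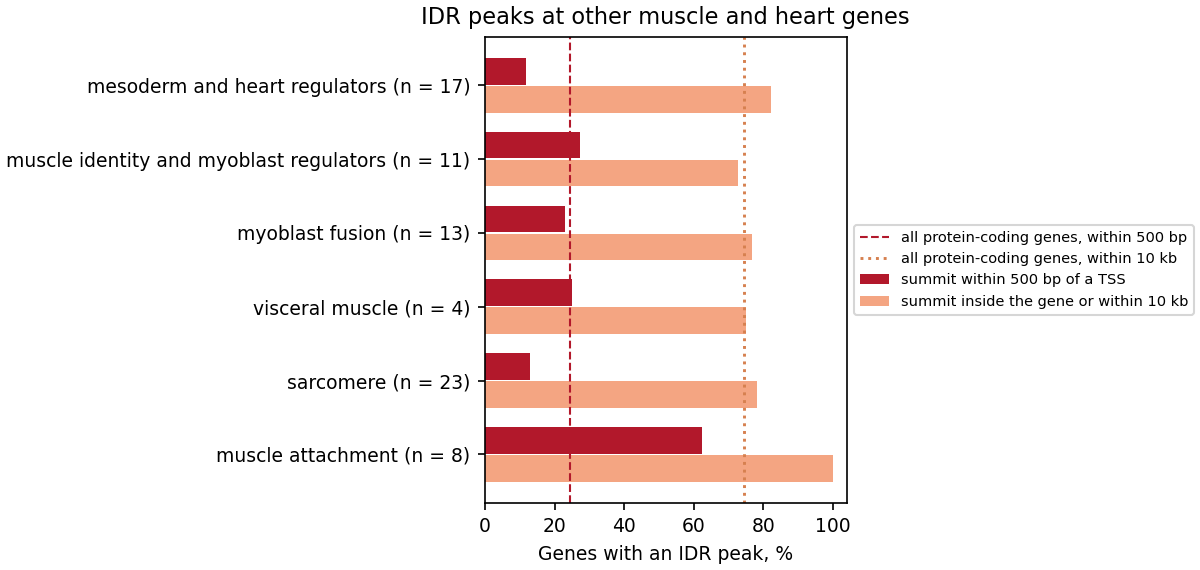
Percent of genes in each of the 6 lists whose TSS had an IDR summit within 500 bp (dark bars) or inside the gene or within 10 kb (light bars), with the share of all 13945 protein-coding genes as vertical lines at 24.6% (dashed) and 74.6% (dotted). Muscle attachment genes have the highest shares, 62.5% and 100%, in a list of only 8 genes.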

How the data were processed

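Peak lists of ChIP-seq for GFP-tagged gem were used from 2 replicates of 1 group, on assembly dm6. Per the labels, chromatin was sonicated to 200 to 800 bp. Per the listings deposited with the samples, peaks were called on each replicate with a control alignment and on both pooled, and the IDR list was derived from these. The aligner, caller, IDR threshold and depth are not given in the sources used here. The deposited lists give each peak's signal (narrowPeak column 7), used to describe and rank peaks, a −log10 q-value as the authors deposited it, not used for ranking, and a summit offset in bp.

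Summits were placed on gene models of Ensembl release 115 (BDGP 6.54), without transposable elements, using Python 3.11.15, numpy 2.4.6 and pandas 2.3.3. Windows were the gene plus 10 kb, promoters 500 bp around a TSS, replicate matches 100 bp and motif windows 50 bp on each side of a summit, on both strands. Alternatives were other flanks, TSS and matching distances, motif windows and lists, stronger peaks alone, nearest-TSS assignment, no kirre, and each replicate left out. No tests were made: 1 group of 2 replicates has no comparison between conditions. Listed symbols were matched to the annotation, 2 of 76 through older names. Named genes were all 10 genes with up to 3 of their strongest peaks, and up to 4 genes per other list by promoter signal. The genes and lists were chosen with earlier results of these data known. Counting functions were tested on simulated data.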

Additional observations from a re-analysis of the deposited data

How the results depend on the processing

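Leaving out a replicate, with the 11045 strongest peaks of the other, gave 92 to 107 peaks at the 10 genes (105 in the IDR list), 33 to 34 at regulators (35) and 59 to 73 at structural and fusion genes (70), 3 genes with a promoter peak and 9 with any peak in both cases. The ratio of median signal, regulators over structural and fusion genes (1.01), ran from 0.796 to 1.04 and that of density (1.55) from 1.44 to 1.73. The ratio of median signal fell below 1 with a flank of 5 kb (0.991), inside genes only (0.822) and with peaks nearest to a coding TSS of these genes (0.973), and was 1.69 in the pooled list; the cause was not tested. The density ratio was 1.01 in the pooled list and 4.05 without kirre, where the rst peaks in the kirre window were kept. In the stronger 5522 IDR peaks the counts were 43 at the 10 genes, 14 at regulators and 29 at structural and fusion genes, and with peaks nearest to a coding TSS of these genes 39, 14 and 25, since fewer peaks enter. Inside genes only, regulators had 18. The pooled list gave 6 genes with a promoter peak. CCGGTT was found at 2 of 105 summits within 100 bp (1.90%, against 2.66% of all). In all, 37 values of these results at alternative settings stayed within 1.5 times, or for ratios moved by less than the replicate SD. They include all values above with a replicate left out, except the ratio of 0.796. Ranks of the strongest peaks in single replicates are not among these values. Of those ranks, 12 were counted as the same and 5 as moved, such as 448 to 658 at kirre and 4115 to 5066 at twi, both in replicate 4. No paired analysis was possible because the series has 1 group. Depth is unknown, and embryos without the tag are not analysed here.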
